A study of Mus musculus with 72 samples.

Results

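The genes of heme synthesis were followed in the liver and the lung of mice 48 h after whole body irradiation (WBI) with X-rays. The members were the non-control probes of the mRNA array whose transcript accession maps to Alas1, Alas2, Alad, Uros, Urod, Cpox, Ppox or Fech, which gave 13 probes for 8 genes, of 56605 probes and 23787 named genes on the array. Female C57BL/6 J mice, 6 to 8 weeks old, were irradiated once at 1.05 Gy/min, with surface doses that went from 1 Gy through 2, 4 and 8 Gy to 12 Gy. Sham irradiated mice (0 Gy) were the controls. Each dose group held 3 mice, and RNA of whole liver and whole lung was hybridised to 1-colour arrays, 18 for each tissue. Whether blood was flushed from the organs is not given in the sources used here.

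Heme is built in a chain of enzymatic steps that begins and ends in the mitochondrion. The first and rate-limiting step, the joining of glycine and succinyl-CoA, is carried out by 5-aminolevulinate synthase, which exists as a housekeeping form encoded by Alas1 and an erythroid form encoded by Alas2. In the liver Alas1 supplies heme mainly to cytochromes P450, whereas Alas2 is a gene of erythroid precursors and reticulocytes, where its product feeds hemoglobin. The remaining steps are shared by all cells: Alad joins pairs of aminolevulinate, Uros closes the tetrapyrrole ring, Urod and Cpox shorten its side chains, Ppox oxidises it, and Fech inserts the iron.

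The promoters of the paralogs Alas1 and Alas2 are shown because these genes share the first step but differed in their changes after WBI. RefSeq start sites on GRCm38.p6 were found for 7 of the 8 genes, and Fech had no entry. The 250 bases before the start are printed 5′ to 3′ on the strand of the gene. Alas2 lies on the plus strand of the X chromosome (chrX:150547167-150547416) and Alas1 on the minus strand of chromosome 9 (chr9:106247955-106248204, the more upstream of its starts). Capitals mark matches, on either strand, to the GATA motifs AGATAA or TGATAA, the Krüppel-like motif CACCC, the NF-E2 or AP-1 motif TGACTCA, the nuclear respiratory factor motif GCGCATG, the CCAAT box, the TATA box as TATAAA, and the nuclear receptor motif AGGTCA.
Alas2: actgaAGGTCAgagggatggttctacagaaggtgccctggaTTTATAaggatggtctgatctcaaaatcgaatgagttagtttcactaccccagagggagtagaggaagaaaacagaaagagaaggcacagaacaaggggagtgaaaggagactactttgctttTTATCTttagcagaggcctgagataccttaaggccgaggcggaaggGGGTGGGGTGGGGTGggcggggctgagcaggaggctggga
Alas1: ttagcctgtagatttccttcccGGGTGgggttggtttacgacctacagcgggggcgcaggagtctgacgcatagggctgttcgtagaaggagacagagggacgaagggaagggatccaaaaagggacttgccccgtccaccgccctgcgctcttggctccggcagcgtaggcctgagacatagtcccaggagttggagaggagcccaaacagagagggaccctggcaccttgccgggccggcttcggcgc
The Alas2 window held 1 AGATAA on the opposite strand, beginning 86 bases before the start, in letters that GATA factors can bind, and 3 matches to CACCC, the core of sites for Krüppel-like factors, which follow each other directly and begin 40, 35 and 30 bases before the start. AGATAA was present in 9.99% and CACCC in 52% of 32851 windows of the same length. Among the members AGATAA was found for Alas2 alone, while TGATAA (7.94% of windows) was found for Cpox and for 1 of the Uros windows. The Alas2 window also held TATAAA (12.4%, on the opposite strand) and AGGTCA (14%), beginning 209 and 245 bases before the start. The printed Alas1 window had a single CACCC, and the window of its downstream start also held GCGCATG (3.24%), a core of sites for nuclear respiratory factor 1. TGACTCA (4.46%) was found in no member window and CCAAT (33.8%) in those of Alad, Urod and Ppox. These matches are descriptions of letters, and binding was not measured.

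The arrays carried 1 to 3 probes for each gene. The named value is that of the brightest probe. All 13 probes were tested in both tissues, and 12 of them were well above background on all 18 arrays of each tissue, the exception being a dim Uros probe (8 liver and 13 lung arrays). No member spot was saturated. Between 46.1% and 54% of all spots were well above background in liver. In lung the share was 54.1% to 54.8% on the 4 arrays of 1 slide (8 Gy mouse 25 and all 12 Gy mice) and 59.2% to 64% on the other 14. By the tissue markers the 11 hepatocyte genes had 0 Gy means from 15.84 to 18.66 (log2 intensity) in liver and a median of 8.30 in lung, and the 8 lung epithelial genes from 14.96 to 18.62 in lung and a median of 6.69 in liver. The mean level of the hepatocyte list in lung ran from 6.73 to 12.43, against 7.62 to 9.34 in controls and 8.13 to 9.99 at 12 Gy. The lung of 4 Gy mouse 24 stood apart with 12.43, and the other 17 lungs reached at most 10.2. Without mouse 24 the lung change of Alas2 at 4 Gy was -6.46 (limma adjusted p = 1.03e-05), and the lung trends were -5.80 for Alas2 (adjusted p = 0.000471), 0.47 for Alad (adjusted p = 0.00944) and -0.51 for Uros (adjusted p = 0.041). The part of hepatocyte transcripts in the lung results was not tested. The arrays lay on 5 slides that follow the order of the doses. In liver, slide 1 held all 0 and 1 Gy arrays and 2 of the 2 Gy arrays. Slide 2 held the third 2 Gy liver array, the 4 and 8 Gy liver arrays and 1 at 12 Gy, and the other two 12 Gy liver arrays were on slide 3. In lung, slide 3 held all 0 and 1 Gy arrays, slide 4 the 2 and 4 Gy arrays and 2 of the 8 Gy arrays, and slide 5 the third 8 Gy array and all 12 Gy arrays. In lung the doses from 2 Gy up thus shared no slide with 0 Gy, and in their comparisons with 0 Gy slide and dose cannot be told apart.

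Alas2 was the member that changed most. In lung it fell 105-fold at 12 Gy and reached this range by 4 Gy, and in liver it fell 2.39-fold at 12 Gy. A change was called where the log2 change exceeded 1 in size and the adjusted p (limma, Benjamini-Hochberg over all probes tested) was below 0.05. In lung the 3 controls read 13.58, 13.80 and 13.47 on the log2 scale. The 1 Gy mice read 10.32, 12.58 and 10.95. The 2 Gy mice read 9.43, 8.78 and 9.06. All 6 of these irradiated mice were below every control, and the spread was widest at 1 Gy (SD 1.17, against 0.168 in controls). The 4 Gy mice read 7.78, 6.55 and 7.11. The 8 Gy mice read 6.59, 6.98 and 6.77. The 12 Gy mice read 7.17, 6.97 and 6.60. From 4 Gy on the doses overlapped each other, and all remained well above background.

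Against 0 Gy the lung log2 change of Alas2 was -2.33 ± 0.429 (SE, n = 3 a group; limma adjusted p = 0.0849) at 1 Gy, which did not pass. It was -4.53 ± 0.429 at 2 Gy (adjusted p = 0.000106) and -6.47 at 4 Gy (adjusted p = 7.01e-07). It was -6.84 at 8 Gy (115-fold lower, adjusted p = 1.48e-07) and -6.71 at 12 Gy (105-fold lower, adjusted p = 1.19e-07). The share of all probes called in lung was 0.0227% at 1 Gy, 0.446% at 2 Gy, 1.46% at 4 Gy, 2.51% at 8 Gy and 7.29% at 12 Gy, and Alas2 was the only member called at 2 Gy and above, 1 of 8 genes at each dose. The 1 Gy result turned on mouse 12: without it the log2 change was -2.98 and the limma adjusted p was 0.00188.

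With slide as a random block the lung change of Alas2 was still called from 2 to 12 Gy (limma adjusted p between 7.39e-06 and 0.00595). Slide as a fixed term leaves only the 1 Gy comparison and the trend, and there the trend was -3.98 ± 1.46 (adjusted p = 0.487). Within slide 3 the 1 Gy change was -2.33 (adjusted p = 0.797 among 6 arrays). Within slide 4 the 2 Gy arrays (8.78 to 9.43) were all above the 4 Gy arrays (6.55 to 7.78) and above both 8 Gy arrays (6.59 and 6.98).

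In liver the 3 controls read 12.00, 11.63 and 11.71 for Alas2, and the 1 Gy mice 10.99, 11.53 and 11.11. The 2 Gy mice read 10.85, 10.67 and 10.96, and the 4 Gy mice 10.47, 10.39 and 11.03. The 8 Gy mice read 10.30, 10.42 and 10.91, and the 12 Gy mice 10.36, 10.50 and 10.70. All 15 irradiated livers were below all controls, and the doses from 2 Gy on overlapped. The log2 change was -0.57 at 1 Gy (limma adjusted p = 0.598) and -0.95 at 2 Gy (adjusted p = 0.0618), which passed without 4 Gy mouse 24 (-0.95, adjusted p = 0.0457) or 8 Gy mouse 25 (-0.95, adjusted p = 0.0393). It passed at 4 Gy (-1.15 ± 0.206, adjusted p = 0.00804), 8 Gy (-1.23, adjusted p = 0.00247) and 12 Gy (-1.26, 2.39-fold lower, adjusted p = 0.00187). Among all probes tested in liver 0.0339% were called at 1 Gy, 0.245% at 2 Gy, 0.944% at 4 Gy, 2.2% at 8 Gy and 2.06% at 12 Gy, and Alas2 was again the only member called from 4 Gy on. With slide as a fixed term the 12 Gy change was -1.62 ± 0.438 (adjusted p = 0.122), and with slide as a random block it was -1.28 (adjusted p = 0.00385). Within slide 1 the change was -0.57 at 1 Gy (adjusted p = 0.77) and -1.02 at 2 Gy (adjusted p = 0.194).

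A straight line through all 6 doses gave the same order. Over 12 Gy the fitted line of Alas2 fell by 5.75 ± 1.05 in lung (limma adjusted p = 0.000552) and by 0.98 ± 0.241 in liver (adjusted p = 0.0129), log2 units, the second just short of the size needed for a call. Liver Alas2 was called on the trend with the processed signal, in the authors' values (-1.01) and on the rank of the dose (-1.21), and when mouse 2, 3, 6, 13, 16, 23, 25 or 26 was left out (largest in size -1.13). Fitted on both tissues normalized together, the line was 5.12 ± 1.21 steeper downward in lung than in liver (difference -5.12, 95% interval -7.57 to -2.67, limma adjusted p = 0.00348). With both tissues normalized together the Alas2 level crossed over: at 0 Gy it was 13.44 ± 0.2 in lung and 12.15 ± 0.178 in liver (mean ± SD, n = 3 a group), and at 12 Gy it was 6.27 ± 0.249 in lung and 11.01 ± 0.156 in liver. The 0 Gy difference did not pass in 3 of the 4 other scalings (0.33 to 0.49, limma adjusted p from 0.219 to 0.47). The 12 Gy difference, which was examined after these values were seen, was -4.74 ± 0.362 (26.7-fold lower in lung, limma adjusted p = 3.36e-12).

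**Figure D1:**
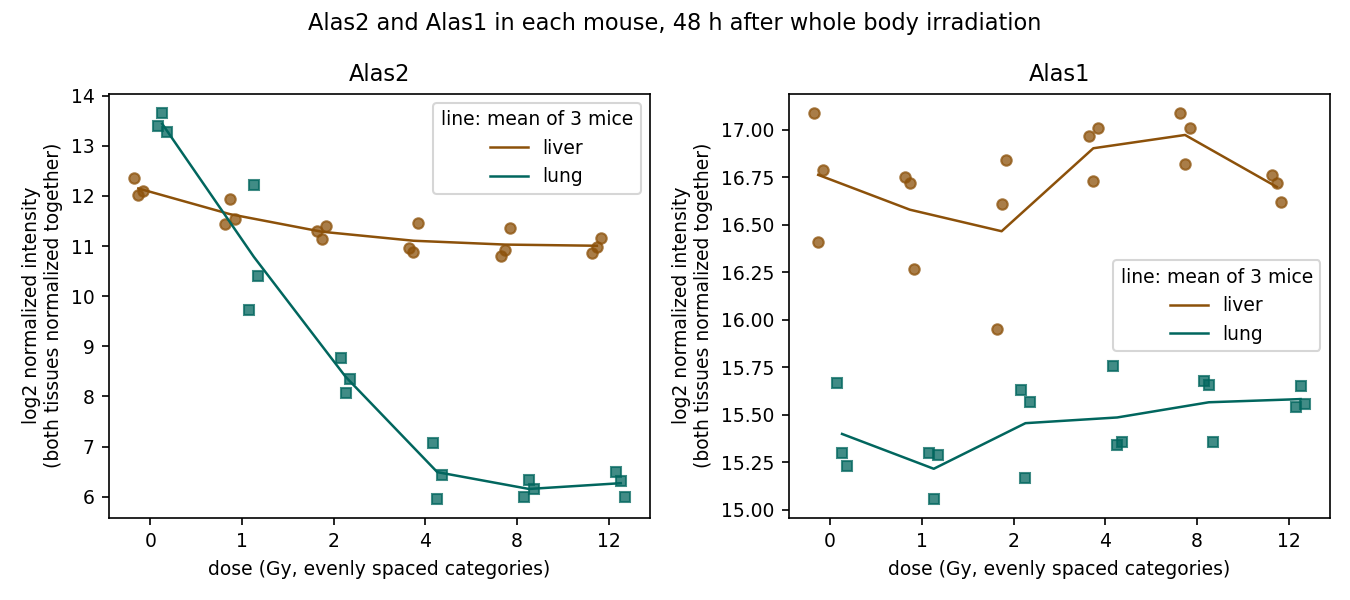
Log2 normalized intensity (both tissues normalized together, vertical axis) of Alas2 and Alas1 against dose in Gy (horizontal axis, evenly spaced categories); each point is 1 mouse and the lines join the means of 3 mice. Alas2 in lung drops from a mean of 13.44 to 6.27 and crosses the liver line, which goes from 12.15 to 11.01 (the 0 Gy difference did not pass in 3 other scalings), while the Alas1 points of each tissue stay in 1 band.

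The globin chains, which need heme as their prosthetic group, were lower together with Alas2. All 5 tested globin probes were called down at 12 Gy in both tissues, where 2.06% of liver and 7.29% of lung probes were called. In lung the Hba-a1 change at 12 Gy was -3.12 and that of Hbb-bt -7.09, so that the Alas2 change lay inside the range of the globins. In liver the Hba-a1 change was -6.44 ± 0.388 (limma adjusted p = 3.2e-07), and the changes of Hba-a2, Hbb-b1 and Hbb-b2 were -6.49, -7.14 and -6.95, all far larger in size than the -1.26 of Alas2. Hbb-bt was not well above background on any 12 Gy liver array and was at least 517-fold lower than in controls (lowest signal well above background or the probe's own signal, whichever was higher). Between lung and liver 0 of the 5 globin trends differed by the limma test of the difference, where that of Alas2 did. The globin probes recognise closely similar genes, and their values may share signal.

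**Figure D2:**
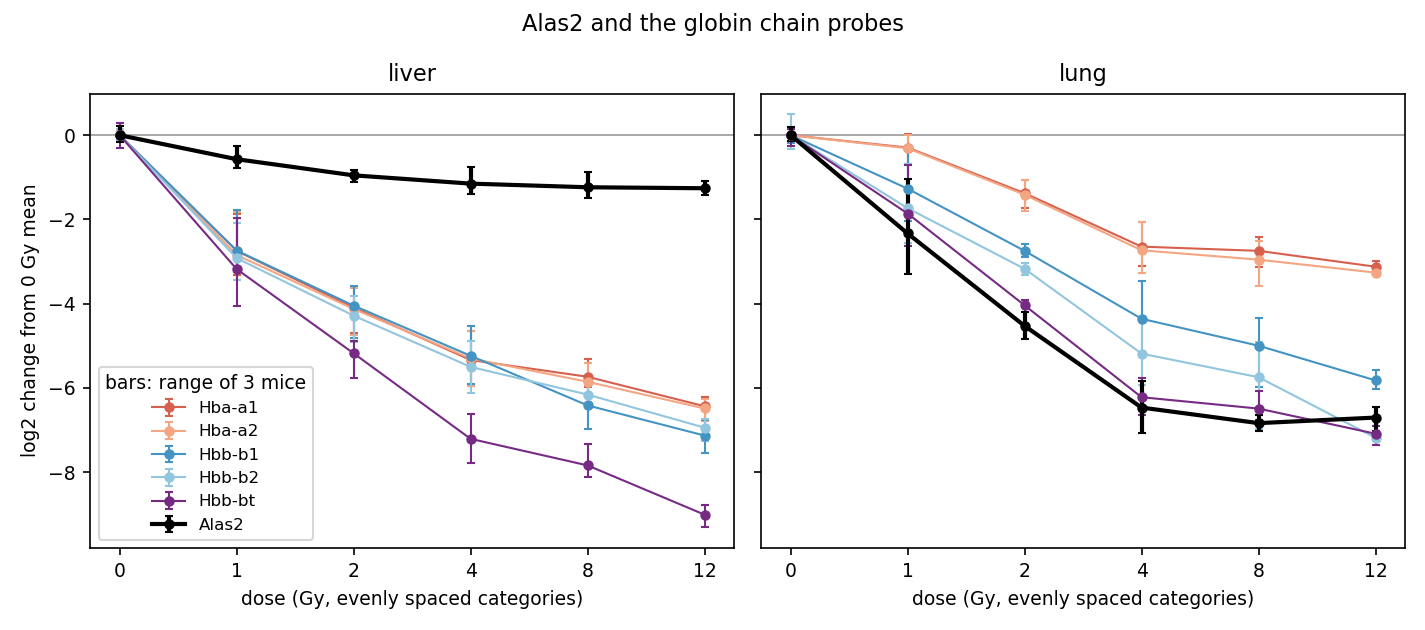
Log2 change from the 0 Gy mean (vertical axis) of Alas2 (black, thick) and 5 globin probes against dose in Gy (evenly spaced), in liver and lung; points are means of 3 mice and bars the range. In liver Alas2 levels off near -1.26 while the globins go below -6, and in lung Alas2 lies below all 5 globin means up to 8 Gy and among the beta globins at 12 Gy.

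Other erythroid genes were measured beside Alas2. Of 13 listed markers 9 were tested in liver and 11 in lung, and 8 of the 12 with a probe were well above background in all lung controls and 5 in all liver controls. Slc4a1, the anion exchanger of the red cell membrane, had a lung control mean of 9.12 and was not well above background on any lung array at 4, 8 or 12 Gy, at least 11.8-fold lower at 12 Gy (limma adjusted p = 0.000168). In liver Slc4a1 was well above background on 2 of 3 controls and on no 12 Gy array, at least 2.24-fold lower (limma adjusted p = 0.0157). At 12 Gy 3 erythroid markers were called down in lung (Slc4a1, Kel and Trim10) and 1 in liver (Slc4a1), and none was called up. Of all probes tested 7.29% were called at this dose in lung and 2.06% in liver. Kel was well above background on 1 lung control and on no other lung array. It was tested through that control alone, and its call is not read as a fall. Its control mean of 4.66 was below the lowest signal well above background at 12 Gy (4.98), so that no size can be given for its change. Trim10 was at least 1.69-fold lower in lung. The mean log2 level over the list ran from 7.30 to 7.71 in lung controls and from 6.88 to 6.97 at 12 Gy. In liver it ran from 6.89 to 7.18 in controls and from 7.04 to 7.30 at 12 Gy. Hemgn, an erythroid gene that the list also holds, rose on the lung trend (0.73, limma adjusted p = 0.000126) and on the liver trend (0.69, adjusted p = 0.0145), and its 0 Gy mean was 14.68 in liver. In bulk tissue fewer cells of a type and less RNA per cell cannot be told apart, and the part that erythroid cells or blood have in the Alas2 change was not tested.

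Over all arrays of a tissue the genes most like Alas2 in expression were globins, and in lung other genes came close. Over the 18 lung arrays the 5 named genes with the highest Pearson r were Hbb-bt (0.992), Hba-a1 (0.985), Zdhhc22 (0.968), Slc6a20a (0.965) and Hbb-b1 (0.964). After subtraction of the dose means r was 0.948 for Hbb-bt and 0.952 for Hba-a1, and the spread of Alas2 was widest at 1 Gy. This within-dose r was 0.794 for Hbb-b1 and 0.744 for Hbb-b2. It was as high for the non-globin genes Zdhhc22 (0.789) and Slc6a20a (0.793). Over the 18 lung arrays Cd37 (0.961) and H2-Ob (0.957) stood above Hbb-b2 (0.954), with within-dose r of -0.0814 and -0.449. In liver the closest genes reported here were Hba-a2 (0.92), Hba-a1 (0.916), Hbb-b2 (0.914), Hbb-bt (0.913) and Hbb-b1 (0.911), and the within-dose r ranged from 0.437 to 0.502. Among the next genes in order, within-dose r ran from 0.253 for H2-Oa to 0.73 for Cd209a. Within a dose the liver globins were thus not the closest. These values describe arrays that share doses and slides.

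Alas1 passed the test at no dose in either tissue by its brightest probe in the main fits. In liver the controls read 17.08, 16.28 and 16.70, and the 12 Gy mice 16.67, 16.62 and 16.50, inside the range of the controls. The 8 Gy mice read 17.09, 16.76 and 16.98. The log2 change at 12 Gy was -0.09 ± 0.251 (limma adjusted p = 0.896), and the trend over 12 Gy was 0.20 with a 95% interval of -0.27 to 0.67. Liver Alas1 varied between mice of 1 dose (residual SD 0.323, above 64.9% of probes tested), and the 3 Alas1 probes moved together from mouse to mouse (r within dose from 0.813 to 0.843).

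In lung Alas1 controls read 15.90, 15.52 and 15.44, and the 12 Gy mice 15.77, 15.88 and 15.79, which overlapped them. The brightest probe had a trend of 0.28 ± 0.141 (limma adjusted p = 0.134), while the second probe rose by 0.62 ± 0.148 (adjusted p = 0.00403) and the third gave 0.07 (adjusted p = 0.802), so the Alas1 probes disagreed in lung. The trend of the brightest probe also passed when arrays were scaled to their 75th percentile (0.41 from normexp values, adjusted p = 0.0261, and 0.54 from the processed signal, adjusted p = 0.00235) and in the authors' values (0.49, adjusted p = 0.0013). At 12 Gy this probe passed in lung with the processed signal (0.48, limma adjusted p = 0.0329) and in the authors' values (0.42, adjusted p = 0.0187). The lung and liver trends of Alas1 differed by 0.09 (95% interval -0.39 to 0.57, adjusted p = 0.837), against -5.12 for its erythroid paralog. The genes with the highest r to Alas1 over 18 liver arrays were Slc30a5 (0.815), Upp2 (0.81), Gtpbp4 (0.806), Arl6ip6 (0.805) and Morc3 (0.789). In lung they were Gria1 (0.886), Olfr1443 (0.863), Irs2 (0.845), Relt (0.84) and Ttll3 (0.836), a set that shares no gene with that of liver.

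Of the 6 enzymes after the first step none was called at any dose, and their changes were all under 2-fold. By adjusted p below 0.05 alone, 1 of the 8 members passed at 12 Gy in liver (Alas2), where 7.01% of probes did, and 2 of 8 in lung (Alas2 and Alad), where 21.4% did. On the trend 2 of 8 passed in liver (Alas2 and Cpox) beside 9.51% of probes, and 3 of 8 in lung (Alas2, Alad and Uros) beside 30.7%. By the stricter call 0 of 8 passed the liver trend, with Alas2 at the threshold, and 1 of 8 the lung trend, beside 2.02% and 7.02% of probes. The numbers passing in lung moved with the scaling. At 12 Gy they went up to 5 of 8 (the authors' values), beside 25.5% of probes. On the trend 5 of 8 passed with a normexp offset of 50, beside 30.6% of probes, and 6 of 8 passed in the 75th percentile scalings and the authors' values, beside 32.7% to 33.4%.

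Alad, the second enzyme, rose in lung at the highest dose. Its lung controls read 11.40, 11.41 and 11.44. The 12 Gy mice read 11.80, 12.09 and 11.80, above every control, while the 4 Gy mice (11.32, 11.29 and 11.42) overlapped the controls. The log2 change at 12 Gy was 0.48 ± 0.144 (limma adjusted p = 0.0289), which no longer passed without control mouse 1, 11 or 21 or 12 Gy mouse 16 (0.37 to 0.49, adjusted p up to 0.107), nor with slide as a random block (0.42, adjusted p = 0.232). The 12 Gy lung arrays were also those with the fewest spots well above background (54.1% to 54.8% together with 8 Gy mouse 25), and the part of this in the result was not tested. The lung trend was 0.47 ± 0.123 (adjusted p = 0.00754). In liver the 12 Gy mice (12.17, 12.17 and 12.00) were below the controls (12.21, 12.31 and 12.23), a change of -0.14 that did not pass (adjusted p = 0.655). The lung trend exceeded the liver trend by 0.68 (95% interval 0.34 to 1.02, adjusted p = 0.00519).

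Uros, whose product closes the ring, had probes that differed in their response. The brightest probe read 9.995, 10.21 and 10.44 in lung controls and 9.5, 10.09 and 9.85 at 12 Gy, with a trend of -0.51 ± 0.186 (limma adjusted p = 0.0448), a result that was lost when mouse 2, 3, 4, 6, 11, 12, 13, 15, 21, 22, 23 or 25 was left out (adjusted p up to 0.104), and with slide as a random block (-0.48, adjusted p = 0.121). The second Uros probe fell at 12 Gy in lung (-0.70 ± 0.202, adjusted p = 0.023), where its mice (7.44, 7.62 and 7.39) were below all controls (7.71, 8.40 and 8.44). In liver it fell at 4 Gy (-0.61, adjusted p = 0.0484) and at 12 Gy (-0.59, adjusted p = 0.0337), where the brightest probe gave -0.22 (adjusted p = 0.782) and -0.38 (adjusted p = 0.545). Within a dose the 2 probes correlated weakly (r of 0.0796 in liver and 0.147 in lung). They are annotated to different RefSeq transcripts of the gene.

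Urod, the next enzyme, was among the steadiest of the members in liver. Its liver values ran from 13.71 to 14.11 over all 18 arrays, with a residual SD of 0.0826, larger than that of 2.15% of probes tested. In lung the controls read 12.98, 13.28 and 13.09 and the 12 Gy mice 13.23, 13.79 and 13.41. The lung trend of 0.33 ± 0.125 missed the threshold (limma adjusted p = 0.0536), where it passed in every other scaling (adjusted p from 0.00414 to 0.0327). At 12 Gy the lung change passed in the 75th percentile scalings and the authors' values (0.55 to 0.62, limma adjusted p from 0.0166 to 0.0299).

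Cpox, which acts next, rose with dose in liver. The controls read 13.29, 13.30 and 13.44 and the 12 Gy mice 14.01, 13.50 and 14.14, all above the controls, as were all 4 and 8 Gy mice (13.54 to 13.91). The trend was 0.60 ± 0.159 over 12 Gy (1.52-fold, limma adjusted p = 0.0202), while no single dose passed (at 12 Gy 0.54, adjusted p = 0.103). Without 12 Gy mouse 6 or mouse 26 the trend no longer passed, with adjusted p up to 0.0716, nor did it with slide as a random block (0.58, adjusted p = 0.0542). In lung the Cpox trend was 0.45 ± 0.174 (adjusted p = 0.0582), and it passed in all 4 other scalings (0.44 to 0.61, adjusted p from 0.019 to 0.0444). The difference between the tissues was -0.05 (95% interval -0.54 to 0.44).

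Ppox values pointed opposite ways in the tissues. In liver the 12 Gy mice (10.45, 10.70 and 10.62) were below the controls (10.93, 11.15 and 11.10), a change of -0.47 (limma adjusted p = 0.0793), and in lung the 12 Gy mice (11.69, 11.93 and 11.55) overlapped the controls (11.86, 11.29 and 11.26). Neither trend passed (-0.39, adjusted p = 0.0717 in liver; 0.29, adjusted p = 0.207 in lung), but their difference did (0.67 ± 0.223, adjusted p = 0.0332). The liver trend passed with a normexp offset of 50 (-0.38, adjusted p = 0.0463), with the processed signal (-0.42, adjusted p = 0.033) and in the authors' values (-0.44, adjusted p = 0.0351). That difference was lost without mouse number 6, 11, 12, 16, 21, 22, 25 or 26 in both tissues (adjusted p up to 0.11), and as the mean of both Ppox probes (0.45, adjusted p = 0.133).

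Fech, which inserts the iron, had lower lung values at 1 to 8 Gy than in controls, without passing at any dose. The lung controls read 12.95, 13.08 and 13.09. The 2 Gy mice read 12.35, 12.45 and 12.37, and all 12 mice from 1 to 8 Gy (12.35 to 12.81) were below every control. The 12 Gy mice read 12.74, 13.24 and 13.05 and overlapped them. The log2 change was -0.65 ± 0.146 at 2 Gy (limma adjusted p = 0.0691) and -0.03 at 12 Gy (adjusted p = 0.915). The 12 Gy value had the opposite sign in the 75th percentile scalings and the authors' values (0.14 to 0.24, adjusted p from 0.338 to 0.512), and passed in none. The 12 Gy lung arrays were on slide 5, with 54.1% to 54.8% of spots well above background, and the controls on slide 3, with no array below 59.2%, and the part of the slide was not tested. In liver Fech ran from 14.01 to 14.40 over all arrays, with a residual SD of 0.0713, above that of 1.24% of probes.

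**Figure D3:**
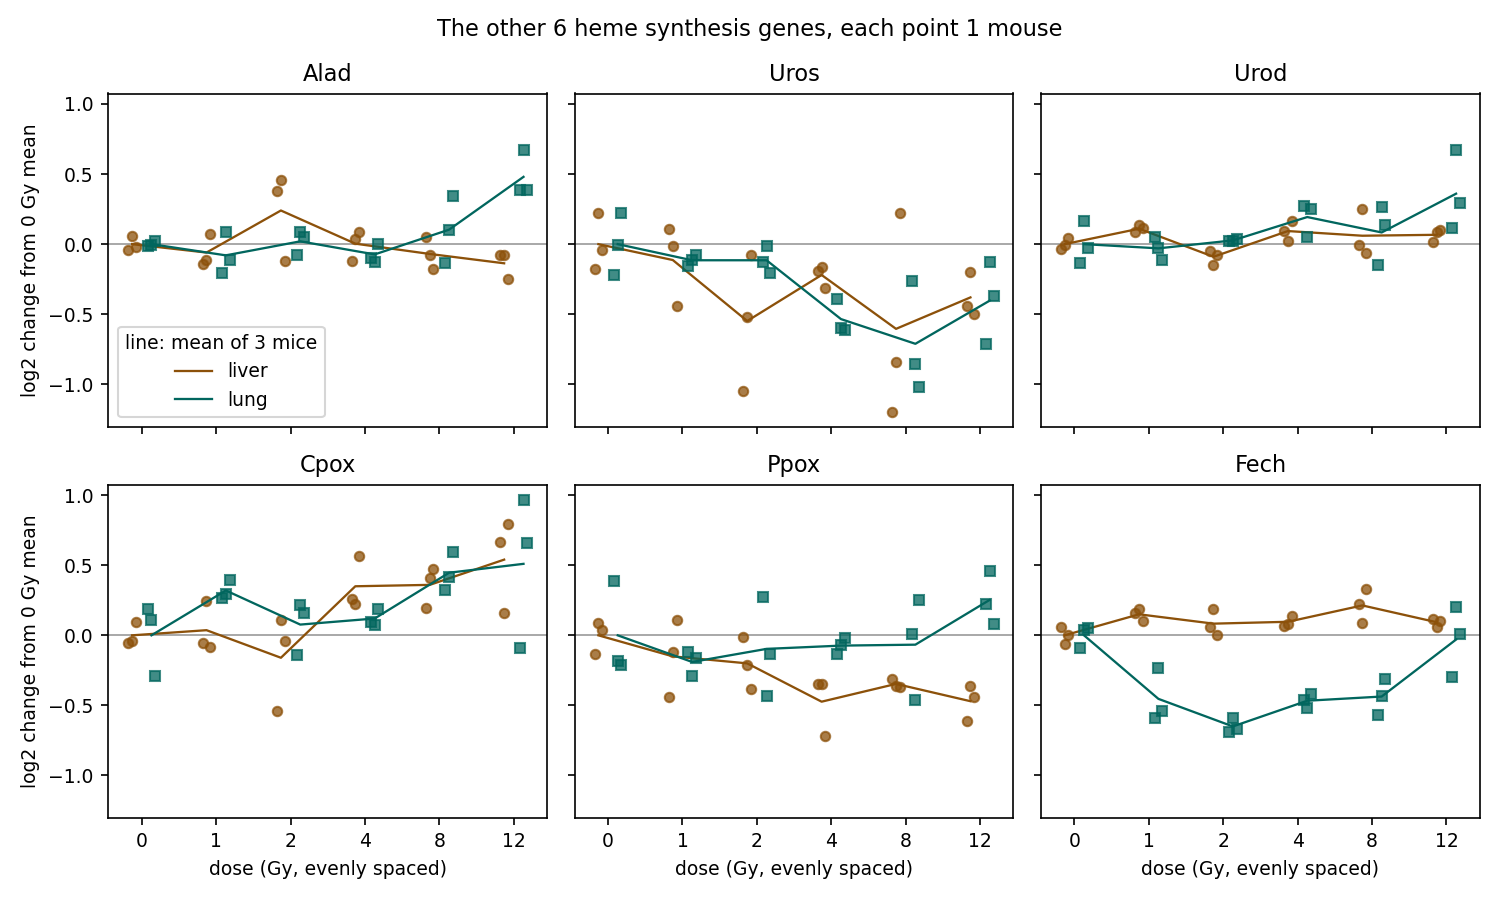
Log2 change from the 0 Gy mean of the same tissue (vertical axis) against dose in Gy (evenly spaced) for the 6 enzymes after the first step; each point is 1 mouse, brown circles liver and green squares lung, and lines join means of 3 mice. Lung Alad is raised at 12 Gy only (0.48), liver Cpox is raised from 4 Gy on, and lung Fech lies below its controls at 1 to 8 Gy and overlaps them at 12 Gy.

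**Figure D4:**
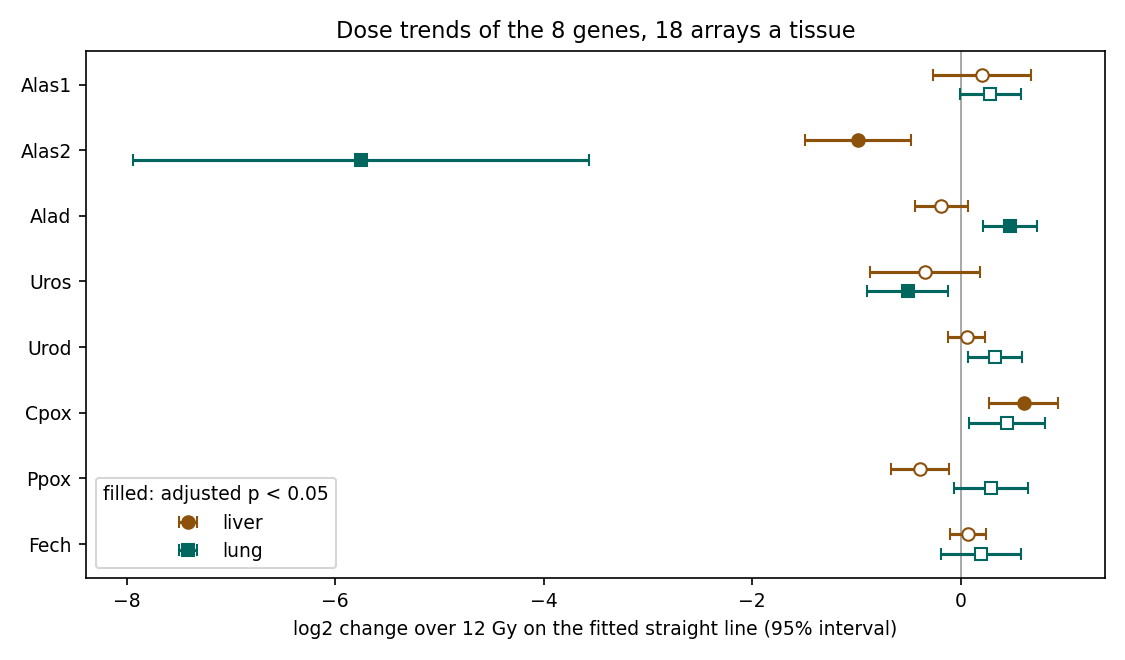
Fitted log2 change over 12 Gy (horizontal axis) with its 95% interval for the 8 genes in liver (circles) and lung (squares), 18 arrays a tissue; filled symbols had an adjusted p below 0.05. Lung Alas2 (-5.75) stands apart, and the other 14 estimates apart from liver Alas2 (-0.98) lie between -0.51 and 0.60.

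Across the members, 3 of 8 genes had trends that differed between the tissues by adjusted p below 0.05 (Alas2, Alad and Ppox), where 16.5% of all probes did. The median log2 change of the 8 genes at 12 Gy was -0.11 in liver and 0.22 in lung, beside 0.00895 and 0.0942 over all probes tested.

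Unirradiated liver had more of most of these transcripts than unirradiated lung. With both tissues normalized together, 6 of 8 genes were called lower in lung at 0 Gy, where 16.8% of probes were, and 1 (Alas2) was called higher, where 18% were. The largest differences were those of Cpox (-2.79 ± 0.21, 6.91-fold lower in lung, limma adjusted p = 2.93e-12) and Alad (-1.64, 3.12-fold lower, adjusted p = 2.5e-11). Uros (-1.48), Fech (-1.41), Alas1 (-1.36) and Urod (-1.11) followed. Ppox was -0.52 (limma adjusted p = 0.0269), too small to be called, and did not pass without control mouse 11 or 21 (-0.38 and -0.39, adjusted p = 0.219 and 0.207). Alas2 was 1.29 ± 0.362 higher in lung (2.45-fold, adjusted p = 0.00336). This last call depended on scaling: it was 0.33 to 0.49 (adjusted p from 0.219 to 0.47) in the 75th percentile scalings and the authors' values, in which the median over all probes moved from -0.0491 to between -0.557 and -0.285. At 12 Gy 5 of 8 genes were called lower in lung, Alas2 now among them, where 19.6% of probes were.

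The genes that bring precursors and iron to the enzymes or handle ALAS protein changed little. Of 13 such genes, 0 were called at 12 Gy or on the trend in either tissue. On the lung trend 4 of 13 passed the adjusted p alone, beside 30.7% of all probes: Slc25a38, the mitochondrial glycine carrier (0.48, limma adjusted p = 0.036), Slc25a28, an iron importer (0.43, adjusted p = 0.0331), Glrx5 (0.40, adjusted p = 0.0211) and, downward, Clpx, whose protease acts on ALAS (-0.78, adjusted p = 0.0463). None of the 13 passed the liver trend, where 9.51% of probes did.

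Of 13 genes of heme export, uptake, binding and breakdown, 1 was called up on the trend in each tissue and 0 down, beside 2.02% of probes called in liver and 7.02% in lung. In liver it was Flvcr2, a heme and choline carrier (1.08 ± 0.265, limma adjusted p = 0.013), and in lung Lrp1, the receptor of heme-hemopexin complexes (1.14 ± 0.193, adjusted p = 0.000313). By the adjusted p alone Hp, haptoglobin, also rose in liver (0.29, adjusted p = 0.0162), and Pgrmc1 (0.48) and Hmox2 (0.38) rose and Hebp1 (-0.54) fell in lung, where 4 of 13 passed beside 30.7% of probes.

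Among 10 regulators named for Alas1 or Alas2 the nuclear receptor Nr1d1, a heme-binding repressor of the circadian clock, was called down on both trends (-1.45 in liver, limma adjusted p = 0.0454, and -1.24 in lung, adjusted p = 0.000628). Nfe2, a factor of erythroid and megakaryocytic cells, was called down in liver (-1.80, adjusted p = 0.0058) and fell in lung (-0.87, adjusted p = 0.000847). Nr1i3, the xenobiotic receptor CAR, was called up in liver (1.03, adjusted p = 0.00245) and Nr1i2 rose there by 0.78 and in lung by 0.76. Ppargc1a, a coactivator of hepatic Alas1, rose in lung (0.88, adjusted p = 0.00658), as did Nrf1 (0.57) and, in both tissues, Foxo1 (0.70 in liver and 0.72 in lung). By adjusted p alone 3 of 9 passed upward and 2 downward on the liver trend, beside 9.51% of probes. In lung 4 of 10 passed upward and 2 downward, beside 30.7%. Gata1 was well above background on 18 lung and 0 liver arrays, and Klf1 on 18 liver and 2 lung arrays. Neither passed a trend where it was tested. The mean levels of the B cell, T cell and proliferation lists were also lower at 12 Gy than at 0 Gy in both tissues. That of the neutrophil list changed by 0.067 in liver and -0.5 in lung, with gene medians of 0.0262 and 0.129. At 12 Gy 3 of 5 B cell, 3 of 5 T cell, 1 of 6 neutrophil and 6 of 9 proliferation genes were called down in liver. There 2.06% of all probes were called. In lung these were 6 of 6, 5 of 5, 1 of 6 and 6 of 9 genes, beside 7.29% of all probes. Of the tissue markers, 0 of 11 hepatocyte genes in liver and 0 of 8 lung epithelial genes in lung were called at 12 Gy. Of the hepatocyte genes 0 of 11 were called in lung either. Of the lung epithelial genes 1 of 8 was called down in liver, Napsa, which was at least 3.67-fold lower (limma adjusted p = 7.27e-05).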

How the data were processed

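RNA of liver and lung was hybridised by the authors to 1-colour Agilent mouse arrays and read with Feature Extraction 11.5.1.1, and the deposited scanner intensity (median spot and local background) is not normalized between arrays. The authors' deposited series values are processed intensity of the same arrays on a linear scale, with a normalization not given in the sources used here. They were log2 transformed here and served as an alternative. Columns of miRNA arrays were not used here.

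Spot intensities were background corrected by normexp (limma 3.58.1, R 4.3.3, offset 0), control and outlier spots were left out, and arrays were quantile normalized within a tissue (both tissues together for comparisons between them), and log2 transformed, with repeated spots averaged per probe. A probe entered a fit where any of its arrays read it well above background, 38362 in liver, 43979 in lung and 47376 in both. The fit held all 6 doses, with Benjamini-Hochberg adjustment over all probes tested, and the trend is a straight line on dose, given over 12 Gy. Of 56605 probes, 34566 (61.1%) had a gene name through RefSeq, and promoters are those of RefSeq. The rule for named genes took the brightest probe of each member, its other probes, the 5 genes most like Alas1 or Alas2, and pathway genes called at 12 Gy or on the trend, and other pathway genes that passed the adjusted p alone were named after their values were seen. A gene among those most like Alas2 in liver is not reported here, and the next in order took its place. The members and lists were chosen with earlier results of these data known, and the 12 Gy comparison between the tissues was added after the data were seen. Samples are separate mice by their numbers in the labels. Whether the same number in liver and lung is the same mouse is not given in the sources used here. The main fits of both tissues took liver and lung samples as independent, with the number as a replicate block among the alternatives. The scripts were tested on simulated data. Precision is limited by 3 arrays a group. Alternatives were background correction, scaling, the filter on dim probes, outlier spots, the gene summary, slide, dose scale, the replicate block and leaving out each mouse.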

Additional observations from a re-analysis of the deposited data

Results flagged for a closer look

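The dose trends of 3 genes differed between lung and liver by limma's test of the difference (log2 change over 12 Gy, lung minus liver). Alas2 had a difference of -5.12 (adjusted p = 0.00348), from trends of -5.75 in lung and -0.98 in liver. Alad had a difference of 0.68 (limma adjusted p = 0.00519), beside 0.47 in lung and -0.19 in liver. Ppox had a difference of 0.67 (limma adjusted p = 0.0332), beside 0.29 and -0.39, neither of which passed alone. Groups of 3 mice are too small for a search for single outlying arrays, and none was made.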

How the results depend on the processing

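No value that passed changed direction under an alternative. Values that passed neither way changed sign in 12 cases, and in 5 more with a mouse left out, among them lung Fech at 12 Gy (-0.03, and 0.24 with 75th percentile scaling) and the liver trend of Alas1 (0.20, and -0.25 with slide as a fixed term). The higher Alas2 level in lung at 0 Gy did not pass with 75th percentile scaling of normexp values (0.49) or of processed signal (0.45), or in the authors' values (0.33). With both tissues fitted together the liver changes of Alas2 were -1.14 at 12 Gy and -0.90 on the trend, neither passing, 0 members were called at 12 Gy in liver and 1 passed the liver trend (Cpox). With slide as a fixed term they were -1.62 and -0.89, the lung trend was -3.98, none passing, 0 members were called at 12 Gy in liver and 0 passed either trend. With slide as a random block 1 member passed the liver trend. The lung trend passed in 5 members with a normexp offset of 50 or a stricter filter on dim probes, and in 6 in the 75th percentile scalings and the authors' values. Lung doses from 2 Gy up share no slide with 0 Gy, so they were not run with slide fixed. The cause of these changes was not tested.

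Leaving out 1 mouse at a time gave Alas2 changes of -6.83 to -6.54 at 12 Gy in lung, -1.35 to -1.15 in liver, trends of -6.34 to -5.28 and -1.13 to -0.85, a trend difference of -5.71 to -4.64 and a 0 Gy difference of 1.11 to 1.42, and 1 to 3 members passing the liver trend, 2 to 4 the lung trend and 2 to 3 the trend difference. With mouse number as a replicate block the Alas2 trend difference was -5.12 (limma adjusted p = 0.00224) and the 0 Gy difference 1.29 (adjusted p = 0.00215), and the block changed no call. Over all probes, deviations of liver and lung with the same number correlated between -0.0597 and 0.104, 1 of 18 above 0.1. This cannot decide whether a number is the same mouse in both tissues, and the main fits did not treat the numbers as pairs. For Alas2 alone r was 0.357 over 18 numbers, and the mean globin level put the 3 numbers of a dose in the same order in both tissues at 5 of 6 doses.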
